A study of Drosophila melanogaster with 9 samples.

Results

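Cytosolic ribosomal proteins build the large and small subunits of the ribosome that translates nuclear messages. The genes described here were taken as every FlyBase symbol that starts with RpL, RpS or RpLP followed by a number, without genes of chromosome 4 and without the paralog pairs RpL22 and RpL22-like, RpS5a and RpS5b, RpS19a and RpS19b, and RpL37-1 and RpL37-2. The rule used names and positions only and no measured value. Of 92 symbols with this pattern, 8 were removed by name and 1, RpS3A, for lying on chromosome 4. This left 83 genes of the 17611 gene IDs counted, 10 of them on the X and 73 on the autosomal arms, with 19 on 2L, 19 on 2R, 14 on 3L and 21 on 3R. By name, 44 encode large subunit proteins, 32 small subunit proteins and 3 the stalk proteins RpLP0, RpLP1 and RpLP2, and 4 carry the suffix "-like".

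A ribosome takes up its proteins in fixed proportions, 1 of each apart from the stalk, and cells degrade ribosomal proteins that find no place in a subunit. In Drosophila loss of 1 copy of many of these genes gives the Minute phenotype, a delay in growth with short bristles, so these loci are known for being sensitive to gene dose. The genes sit on every large chromosome arm. In males the X is present once, and the MSL complex, which contains the noncoding RNAs roX1 and roX2, binds it and raises its transcription, so that X-linked and autosomal ribosomal protein genes depend on different machinery to stay in proportion.

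RNA was measured in whole first instar larvae in 3 groups of 3 libraries: males of genotype roX1[ex6]roX2[9-4], which are mutant for both roX genes (roX-KO males), wild-type females, and wild-type males. The stated aim of the series was to learn how roX RNAs affect transcription. The labels name no stock or background and state neither pooling of larvae nor separate cultures for the replicates, so p-values measure the spread between these libraries only. The protocol text of the female samples names male larvae.

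Each library held between 17318293 and 18020359 counts in genes. Counts of roX1 were 52 to 68 in roX-KO males, 314 to 440 in females and 4964 to 6002 in wild-type males, which matches the labels. Female library 3 stands apart from females 1 and 2, with Pearson's r of 0.955 and 0.958 over genes against 0.991 to 0.996 among male replicates, and results that use it are given without it where it decides them. Markers of muscle, neurons and germline were all detected, with no marker at 0 in any group. Summed marker levels of 8 body wall muscle genes were 22760 to 23075 CPM (counts scaled to library size with TMM factors) in roX-KO males, 39511 to 41997 in females and 43935 to 45852 in wild-type males. Summed levels of 8 neuron genes were 579 to 607 CPM in roX-KO males, 291 to 522 in females and 295 to 388 in wild-type males. These are whole animals, so fewer cells of a type and less RNA per cell cannot be told apart, and the part of cell makeup in the results below was not tested.

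The ribosomal protein genes took a large share of all reads. They held 12.8% ± 0.13 of the counts in genes in roX-KO males, 15.4% ± 4.57 in females and 11.1% ± 1.16 in wild-type males (SD, n = 3 each). The spread in females came from library 3, where the share was 20.7%, against 12.4% and 13.1% in females 1 and 2. The lowest roX-KO library, at 12.7%, lay above the highest wild-type male library, at 12.3%. Mitochondrial genes held 7.13% ± 1.14 of the counts in roX-KO males, against 10.7% ± 1.43 in wild-type males. With those genes left out of the total, the ribosomal protein share was 13.8% ± 0.07 in roX-KO males, against 12.4% ± 1.19 in wild-type males, and the libraries then overlapped.

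**Figure D1:**
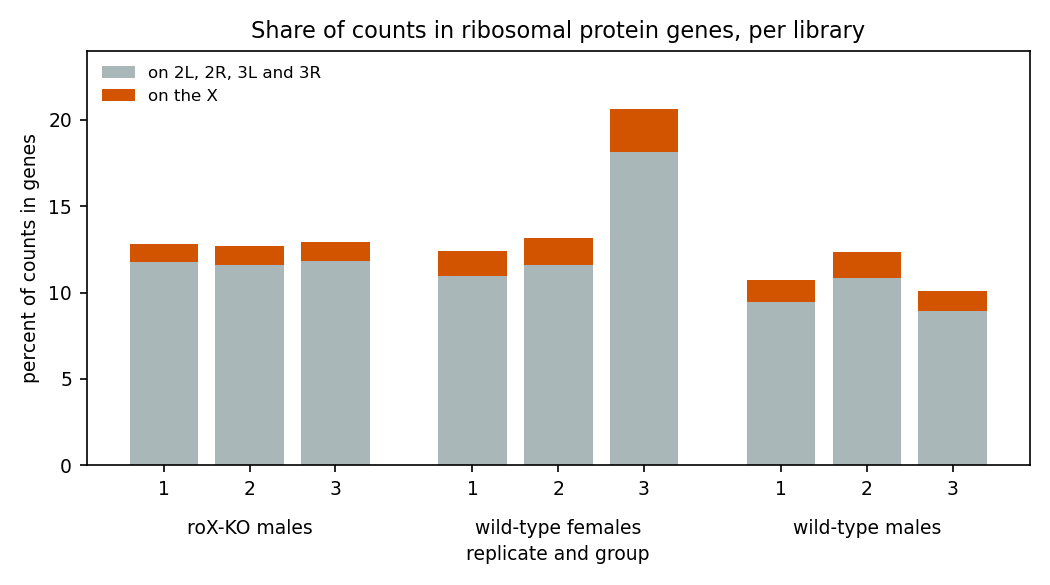
Share of each library's counts in genes, in percent, held by the ribosomal protein genes (bars are libraries, 3 per group, split into genes on the X and on 2L, 2R, 3L and 3R), for roX-KO males, wild-type females and wild-type males. Shares in roX-KO males lie between 12.7% and 12.9%, female library 3 stands alone at 20.7%, and the part on the X is smallest in roX-KO males.

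Of the 83 genes, 79 passed the filter on low counts in each comparison. RpL10Aa, RpS28a and RpL7-like had 0 counts in all 9 libraries, and RpS28-like had 1 count in roX-KO male 3 and 1 in female 1. RpL7-like lies for 98.8% of its exon length under another gene of the same strand, so its counts are uncertain. Per length the tested genes were among the most abundant messages: in wild-type males their median was 1631 CPM per kilobase of exon (RPKM), against 10.1 RPKM over all tested genes. In all 3 groups the level per length was highest for RpL41, at 5342 ± 649 RPKM in roX-KO males, 9843 ± 5293 in females and 6996 ± 844 in wild-type males (SD, n = 3 each). RpL41 is a very short gene, and the level per length of so short a gene is uncertain. RpL23, a large subunit protein, came next in both wild-type groups, with 3511 ± 187 RPKM in roX-KO males, 4866 ± 2307 in females and 3213 ± 339 in wild-type males. RpL27A was behind it in those groups, with 2659 ± 121 RPKM in roX-KO males, 4096 ± 2099 in females and 2783 ± 466 in wild-type males, and in the wild-type groups it differed from RpL23 by less than its own SD. In roX-KO males RpL15 (3928 ± 134 RPKM) lay above RpL23, and RpL21 (2748 ± 332) between RpL23 and RpL27A.

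A few genes had levels far below the others. RpS10a, the second copy of the small subunit gene RpS10b, had 2.25 ± 0.797 RPKM in roX-KO males, 0.237 ± 0.182 in females and 3.06 ± 0.639 in wild-type males. RpS15Ab, the second copy of RpS15Aa, had 33.6 ± 4.53 RPKM in roX-KO males, 37.5 ± 13.8 in females and 34.6 ± 2.67 in wild-type males, and the 3 groups overlapped. RpLP0-like, whose yeast counterpart is an assembly factor and not a subunit of the finished ribosome, had 73.3 ± 8.28 RPKM in roX-KO males, 46.2 ± 13.3 in females and 92.5 ± 5.50 in wild-type males. All 3 thus lay more than an order of magnitude below the median of the set in each group. The lettered copies (12 genes of the 83) are close in sequence, so reads could have been lost or split between them in the counting and their levels are uncertain.

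In roX-KO males against wild-type males the X-linked ribosomal protein genes fell together, and the autosomal ones stayed near 0 on the log2 scale. On the X, 8 of 10 genes fell and 0 rose, where 32.1% of all tested genes were called lower and 31.4% higher (edgeR's quasi-likelihood test, adjusted p under 0.05). In the same 8 genes every roX-KO library lay below every wild-type male library, as in 34.2% of all tested genes, while 35.2% lay above. At an unadjusted p under 0.05, 9 were lower and 0 higher, and DESeq2 called 9 lower and 0 higher. The median log2 fold of the 10 was -0.48, so the median level fell by 28.1%, and all 10 were negative, between -0.74 and -0.19. Of the 69 tested autosomal genes, 3 rose, 8 fell and 58 were not called, with a median of 0.02. For reference, 1023 of the other 1741 X genes fell and 233 rose (median -0.41, quartiles -0.78 and -0.01), and the other genes of the autosomal arms had a median of 0.08. The quartiles of the X-linked ribosomal protein genes were -0.53 and -0.32, a narrower range around a like median. The autosomal ribosomal protein genes were narrow as well, with quartiles of -0.07 and 0.07, against -0.30 and 0.42 over the other arm genes. With plain library totals 5 of the 10 X-linked genes fell, where 2395 of all 11172 tested genes did. In a fit over all 9 libraries 0 of the 10 fell, while the same fit without female 3 called 9.

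The largest fall on the X was in RpL7A (FBgn0014026, chromosome X, 6530897 to 6533348, minus strand, dm6), a large subunit protein. Its level was 1819, 1996 and 1969.6 CPM in roX-KO males, 3109.9, 3372 and 7255 CPM in wild-type females and 3071, 3675 and 2882 CPM in wild-type males. All 3 roX-KO libraries lay below all 6 wild-type libraries, and the log2 fold against wild-type males was -0.74 ± 0.10 (SE, n = 3 per group; adjusted p = 4.52e-05). RpL36 (FBgn0002579, chromosome X, 628338 to 629483, minus strand), also of the large subunit, had 799.7, 710.3 and 902 CPM in roX-KO males, 1189, 1210.2 and 3036 CPM in wild-type females and 1151, 1475 and 1041 CPM in wild-type males. It fell by 0.61 on the log2 scale in roX-KO males against wild-type males (SE 0.13, adjusted p = 0.00116). RpL35 (FBgn0029785, chromosome X, 5672401 to 5673547, plus strand), which lies at the end of the peptide exit tunnel, had 1314, 1170.5 and 1308 CPM in roX-KO males, 1714, 1750.1 and 3305 CPM in wild-type females and 1652, 2024 and 1535 CPM in wild-type males. Its log2 fold against wild-type males was -0.46 ± 0.11 (adjusted p = 0.00226), again with no overlap between the male groups.

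Among small subunit genes of the X, RpS28b (FBgn0030136, chromosome X, 9554623 to 9555661, plus strand) had 915, 825 and 981 CPM in roX-KO males, 1188, 1399 and 2715 CPM in wild-type females and 1259, 1495 and 1195 CPM in wild-type males, and its log2 fold in roX-KO males against wild-type males was -0.54 ± 0.10 (adjusted p = 0.000534). RpS6 (FBgn0261592, chromosome X, 7899624 to 7901331, minus strand) encodes the protein that S6 kinase phosphorylates downstream of TOR. It had 949, 1012 and 1049 CPM in roX-KO males, 1511, 1716 and 2946 CPM in wild-type females and 1446, 1566 and 1305 CPM in wild-type males, with a log2 fold of -0.52 ± 0.09 (adjusted p = 0.000244). RpS10b (FBgn0285947, chromosome X, 19598031 to 19599806, plus strand), the main copy of its pair, had 1106, 1153 and 1105 CPM in roX-KO males, 1611, 1780.2 and 3475 CPM in wild-type females and 1453, 1862 and 1418 CPM in wild-type males, a log2 fold of -0.49 ± 0.10 (adjusted p = 0.00125). In these 3 genes every roX-KO library was below every wild-type library of both sexes. RpS15Aa (FBgn0010198, chromosome X, 13335637 to 13337705, minus strand) had 1125, 1120.5 and 789 CPM in roX-KO males, 1305, 1641 and 2522 CPM in wild-type females and 1339, 1516 and 1257 CPM in wild-type males, with roX-KO male 3 well below the other 2 roX-KO libraries. Its log2 fold was -0.44 ± 0.13 (adjusted p = 0.00972), and without wild-type male 2 it was not called (adjusted p = 0.175).

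The remaining X-linked genes moved least. RpS14a and RpS14b are neighbouring copies of the gene for a small subunit protein, 7933742 to 7934677 and 7934898 to 7935792 on the X, and reads could be split between them. RpS14b had a log2 fold of -0.29 ± 0.10 (adjusted p = 0.0243) and lost its call without roX-KO male 1 or without roX-KO male 3 (adjusted p up to 0.0921). RpS14a had -0.27 ± 0.12 and missed the threshold (adjusted p = 0.0555). RpL17, a large subunit protein at the peptide exit tunnel, had -0.19 ± 0.11 (adjusted p = 0.139).

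**Figure D2:**
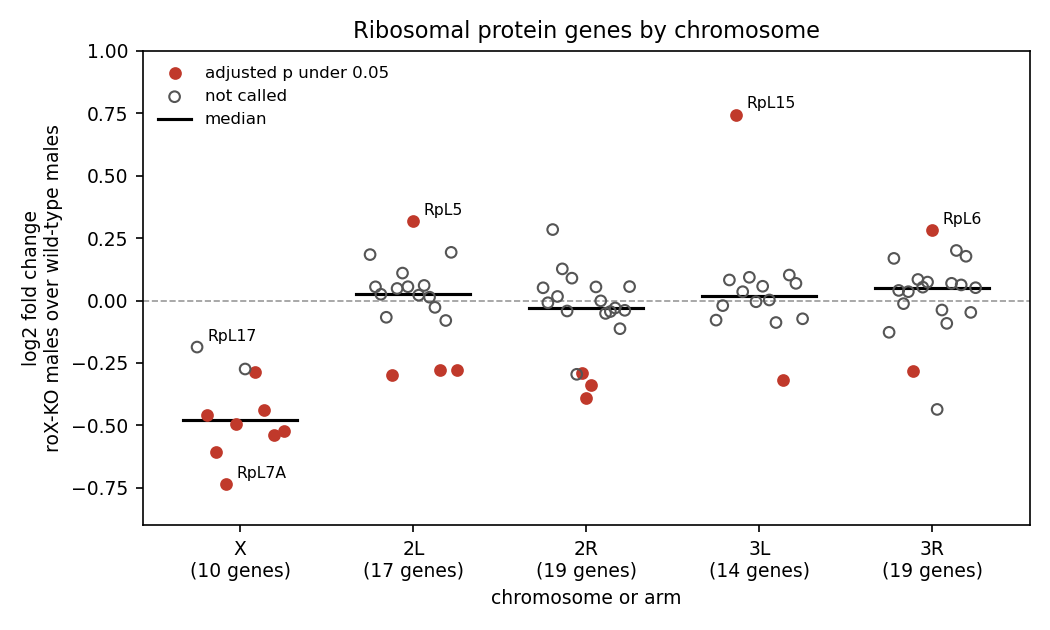
Log2 fold of each tested ribosomal protein gene in roX-KO males against wild-type males, by chromosome arm (points are genes, filled where called at adjusted p under 0.05, and lines are medians). The 10 X-linked genes lie between -0.74 and -0.19, and RpL15 on 3L stands alone at 0.74 above the other autosomal genes.

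Setting each gene against the autosomal ribosomal protein genes of its own library removes the library-wide swings of the set. The relative level is the log2 CPM of a gene minus the median log2 CPM of the 69 tested autosomal ribosomal protein genes in that library. On this scale all 10 X-linked genes were below every wild-type male library in every roX-KO library, with differences of -0.77 to -0.21. The same was true of 10 of 69 autosomal genes, and 6 of 69 lay above in every library. Over all 11308 genes measured this way, 33.2% were lower in every library and 28.3% higher. RpL17 and RpS14a, which were not called on the plain scale, had relative levels of -0.39, -0.36 and -0.24 and -1.55, -1.21 and -1.50 in the roX-KO males, against -0.12, -0.05 and -0.17 and -1.19, -1.03 and -1.12 in the wild-type males.

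As 1 value per library, the X-linked ribosomal protein genes stood relative to the autosomal ones at -0.32 ± 0.05 in roX-KO males, 0.17 ± 0.04 in females and 0.19 ± 0.03 in wild-type males (log2, each library's median deviation from the mean of all libraries; SD, n = 3 each). The difference between roX-KO and wild-type males was -0.52 (-30.0%), and that between females and wild-type males was -0.03 (-1.90%). Over all tested genes the X relative to the arms stood at -0.32 ± 0.02 in roX-KO males, 0.17 ± 0.09 in females and 0.14 ± 0.02 in wild-type males. The X-linked genes made up 8.50% ± 0.07 of all ribosomal protein counts in roX-KO males, 11.95% ± 0.34 in females and 11.9% ± 0.26 in wild-type males. The female and wild-type male shares differed by less than their spread. Per length, the median X-linked gene was at 0.554 to 0.595 of the median autosomal gene in roX-KO males, 0.735 to 0.807 in females and 0.748 to 0.785 in wild-type males.

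**Figure D3:**
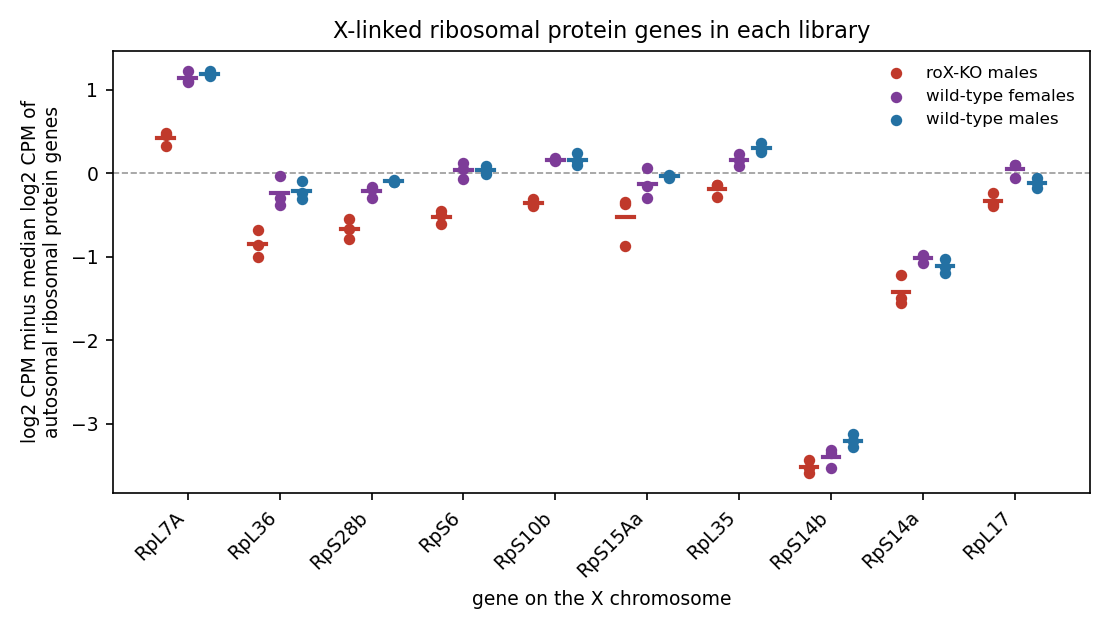
Level of the 10 X-linked ribosomal protein genes relative to the autosomal ones in each library (log2 CPM minus the library's autosomal median), for roX-KO males, wild-type females and wild-type males; points are libraries. Every gene is lower in the roX-KO males than in the wild-type males in all 3 libraries. RpL35, RpS14b and RpS28b are also lower in every female library than in every wild-type male library, and the other genes overlap between those groups. For RpS14b females and roX-KO males overlap.

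By subunit, fewer genes were called than over all tested genes, where 32.1% fell and 31.4% rose. Of 31 tested small subunit genes 8 fell (25.8%) and 0 rose, and 5 of these 8 were among the 6 small subunit genes of the X, against 3 of 25 on the autosomes. Of 43 large subunit genes 7 fell (16.3%) and 3 rose (6.98%), with 3 of 4 on the X lower and 4 lower and 3 higher of 39 on the autosomes. The 3 stalk genes, all autosomal, had a median log2 fold of 0.01. The difference between subunits was not tested.

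The autosomal genes that fell did so by less than most X-linked ones. They were RpL41 (-0.39), RpLP0-like (-0.34), RpS12 (-0.32), RpL30 (-0.30), RpL39 (-0.29), RpL34a (-0.28), RpS2 (-0.28) and RpS27A (-0.28). RpL41 (FBgn0066084, chromosome 2R, 24903416 to 24903935, minus strand) had 1769, 1478 and 1881 CPM in roX-KO males, 1876, 2501 and 5072 CPM in wild-type females and 2081, 2551 and 2084 CPM in wild-type males, with roX-KO males below wild-type males in every library (SE 0.11, adjusted p = 0.00853). RpS27A encodes a fusion of ubiquitin with a small subunit protein, and RpS12 is known in Drosophila for its role in the competition between cells that differ in ribosomal protein dose. These 8 calls depend on the scaling: with plain library totals the median of all genes moved by 0.23, the autosomal set had 39 genes higher and 0 lower, and the X-linked set 5 lower. Without wild-type male 2, the wild-type male library with the largest ribosomal protein share, 21 ribosomal protein genes rose in place of 3. The share of all genes called in that fit is not given here. RpS12, RpL30, RpS2 and RpS27A each lost their call without at least 1 library. RpL30 (adjusted p = 0.0499) was called at the edge of the threshold and lies for 25.1% of its exon length opposite another gene, so without strand its reads cannot be told from that gene's.

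RpL15 rose most of all ribosomal protein genes. It encodes a core protein of the large subunit and lies in the pericentromeric part of 3L (FBgn0028697, chromosome 3L, 27267255 to 27268445, plus strand), in heterochromatin. Its level was 3979.5, 3874 and 4144 CPM in roX-KO males, 2475, 3024 and 3852 CPM in wild-type females and 2322, 2559 and 2278 CPM in wild-type males. All 3 roX-KO libraries were above all 6 wild-type libraries, and the log2 fold against wild-type males was 0.74 ± 0.09 (adjusted p = 1.03e-05). Leaving out any 1 library kept it between 0.69 and 0.80. Relative to the autosomal ribosomal protein genes RpL15 stood at 1.46, 1.44 and 1.53 in roX-KO males, 0.77, 0.94 and 0.31 in females and 0.78, 0.70 and 0.83 in wild-type males, a level 63.3% above that of wild-type males.

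The other 4 ribosomal protein genes next to centromeres had unlike values. RpL5, which carries a small ribosomal RNA into the large subunit, lies at 22532279 to 22536884 on 2L and had 4271, 4246 and 4337 CPM in roX-KO males, 3749, 3768 and 6581 CPM in wild-type females and 3188, 3843 and 3266 CPM in wild-type males. Its log2 fold in roX-KO males against wild-type males was 0.32 ± 0.09 (adjusted p = 0.00999), and the call was lost without wild-type male 1 or without wild-type male 3 (adjusted p up to 0.0922). On the relative scale RpL5 was 21.9% higher in roX-KO males and above wild-type males in every library. RpL21 on 2L, RpL38 on 2R and RpL10 on 3L, all of the large subunit, were not called, with log2 folds of 0.05, -0.30 and -0.08. RpL10 joins late in the making of the subunit, and on the relative scale it was lower in every roX-KO library, by 0.11. Of the other 130 tested pericentromeric genes 78 rose and 13 fell, with a median log2 fold of 0.34. Of the ribosomal protein genes 2 of 5 rose there, against 1 of 64 elsewhere on the autosomal arms; this difference was not tested. That 1 was RpL6 on 3R (0.28 ± 0.10, adjusted p = 0.0265), a large subunit gene whose call was lost without wild-type male 1, without wild-type male 3 or without roX-KO male 2 (adjusted p up to 0.147).

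**Figure D4:**
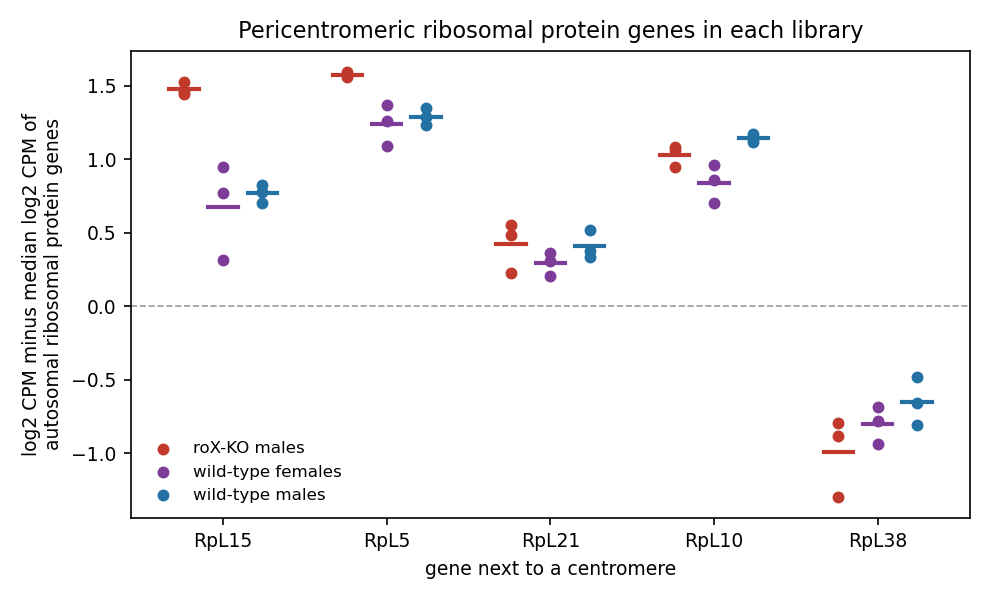
Relative level of the 5 pericentromeric ribosomal protein genes in each library (log2 CPM minus the median of the autosomal ribosomal protein genes), for roX-KO males, wild-type females and wild-type males; points are libraries. RpL15 lies at 1.44 to 1.53 in roX-KO males, against 0.70 to 0.83 in wild-type males, RpL5 is also higher in every roX-KO library, and RpL21, RpL10 and RpL38 are not.

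In females against wild-type males no ribosomal protein gene rose and 2 fell, where 10.8% of all tested genes were called higher and 11.2% lower. The X-linked and autosomal genes had the same median log2 fold, 0.52 and 0.52. Of the 79 genes 77 had a positive log2 fold, with a median of 0.52 that rested on female library 3: without it the median was 0.11. At an unadjusted p under 0.05 again 0 genes were higher and 2 lower, and DESeq2 called 0 higher and 2 lower. RpS10a (FBgn0027494, chromosome 3R, 27652760 to 27653363, plus strand) fell most, with 1, 2 and 4 counts in females and 29, 38 and 26 counts in wild-type males, and a log2 fold of -3.69 ± 0.44 (adjusted p = 0.00218). In roX-KO males it had 38, 21 and 21 counts. RpS10a passed the filter on low counts only through the male libraries. Its fold rests on very low counts in females, so its size is uncertain. Summed germline markers were 23.04 to 31.4 CPM in females and 54.7 to 60.7 CPM in wild-type males, and 7 of 8 of them fell, vas and zpg among them, the part of which in the fall of RpS10a was not tested. RpLP0-like had 37.0, 36.1 and 58.3 CPM in females and 83.9, 93.6 and 85.6 CPM in wild-type males (log2 fold -1.001 ± 0.21, adjusted p = 0.0171). This call was lost without any 1 of the 3 wild-type males and without female 1 or 2 (adjusted p up to 0.0701). RpL15 had a log2 fold of 0.39 and was not called (adjusted p = 0.227). On the relative scale 3 of 10 X-linked genes were lower in every female library and 0 higher, where 36.9% and 4.06% of all genes were. Of the 69 autosomal ribosomal protein genes 10 were lower and 1 higher in this way.

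In roX-KO males against females 1 ribosomal protein gene rose and 3 fell, where 10.7% and 16.6% of all tested genes were called higher and lower. The wild-type male libraries do not enter this comparison, but the roX-KO libraries are the same ones as above. The 3 that fell were X-linked: RpL7A (-1.25 ± 0.33, adjusted p = 0.0315), RpS6 (-1.04 ± 0.26, adjusted p = 0.0248) and RpS10b (-1.03 ± 0.30, adjusted p = 0.0411). The gene that rose was RpS10a (3.25 ± 0.52, adjusted p = 0.00432). It passed the filter on low counts only through the roX-KO libraries, and its fold rests on very low counts in females. The X-linked genes had a median log2 fold of -0.94 and the autosomal ones of -0.51, and both medians rest on female 3. The 3 falls were lost when any 1 roX-KO library was left out. With female 3 left out, 21 ribosomal protein genes fell, 9 of the 10 X-linked ones among them, and 4 rose, with medians of -0.55 on the X and -0.09 on the autosomes. The share of all genes called without female 3 is not given here or below, so counts from such fits cannot be set against it. RpL15 was 0.52 higher and called without female 3 (adjusted p = 6.63e-05), whereas with all 3 females it was at 0.35 and not called (adjusted p = 0.216). On the relative scale 9 of 10 X-linked genes were lower in every roX-KO library than in every female library. Over all genes 9.8% were lower and 43.2% higher in this way, and of the 69 autosomal ribosomal protein genes 3 were lower and 10 higher. RpL15 was 74.1% higher on that scale, a value that includes female 3. Its relative level was 0.31 in female 3, against 0.77 and 0.94 in females 1 and 2.

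Ribosome biogenesis genes, which process and assemble ribosomal RNA and subunits, fell in roX-KO males and in females against wild-type males, while autosomal ribosomal protein genes as a set did not. Of 33 tested ribosome biogenesis genes 29 fell and 1 rose in roX-KO males against wild-type males, with a median log2 fold of -0.46, against 32.1% and 31.4% of all genes. Among the 27 on the autosomes 23 fell, with a median of -0.41, while the 69 autosomal ribosomal protein genes had a median of 0.02. The largest falls were in kz (-1.49), a helicase of small subunit assembly, and l(1)G0020 (-1.20), an acetyltransferase that modifies ribosomal RNA, both on the X, and the 1 that rose was Non1 (0.94), a nucleolar GTPase of the large subunit pathway. Of the same 33 genes 23 fell and 0 rose in females against wild-type males (median -1.16), where 11.2% and 10.8% of all genes did, led by Mat89Ba (-1.95) and Nopp140 (-1.74), a nucleolar chaperone of small nucleolar particles. Set against females, roX-KO males had 13 of them higher and 0 lower (median 0.43), where 10.7% and 16.6% of all genes were, Nopp140 (1.44) and the helicase gene pit (1.03) being highest. The counts depend on the fit: between the male groups 19 of the 33 fell with plain library totals and 19 in a fit of all 9 libraries, and without female 3 roX-KO males had 25 higher and 2 lower than females. In females against wild-type males DESeq2 called 1 higher and 24 lower, and 1 was higher at an unadjusted p under 0.05.

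The polymerases that make ribosomal RNA and transfer RNA were more mixed. Of 21 tested subunits and factors of RNA polymerases I and III, 12 fell and 2 rose in roX-KO males against wild-type males, where 32.1% of all tested genes fell and 31.4% rose, and the median was -0.30. Polr3A (-1.17), the X-linked largest subunit of RNA polymerase III, and Polr1H (-1.07) fell most. The 2 that rose were udd (0.56), a factor for ribosomal RNA promoters, and Brf (0.27), an initiation factor of RNA polymerase III. With plain library totals 9 fell and 7 rose in that comparison. Females had 11 lower and 1 higher than wild-type males (Polr1B -1.80, Polr1C -1.66 and udd 0.87), where 11.2% of all genes were lower and 10.8% higher. Against females 7 rose and 0 fell in roX-KO males, where 10.7% and 16.6% of all genes did, led by Polr1B (1.10) and TAF1B (0.99). Without female 3 the last comparison had 14 higher and 1 lower.

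Translation factors were called about as often as other genes between the male groups. Of 33 tested, 14 fell and 8 rose in roX-KO males against wild-type males, where 32.1% of all tested genes fell and 31.4% rose. The list's shares, 42.4% lower and 24.2% higher, lay near those of all genes, and its median was -0.10, which turns to 0.13 with plain library totals, where 4 fell and 16 rose. In a fit of all 9 libraries 6 fell and 3 rose. All 3 on the X fell, with eIF2alpha at -0.86, the initiation factor subunit whose phosphorylation slows translation, and eIF4H1 at -0.67. The largest rises were in eEF1alpha2 (0.78), an elongation factor, and eIF3m (0.50). Between females and wild-type males 1 fell, eIF4G1 (-0.71), and 0 rose, where 11.2% and 10.8% of all genes did. Against females, eIF2alpha (-1.14) and eIF3g1 (-1.002) fell and eIF4B (0.58) rose in roX-KO males, where 16.6% of all genes fell and 10.7% rose. Without female 3, females had 3 higher and 10 lower than wild-type males, and roX-KO males had 8 higher and 6 lower than females.

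**Figure D5:**
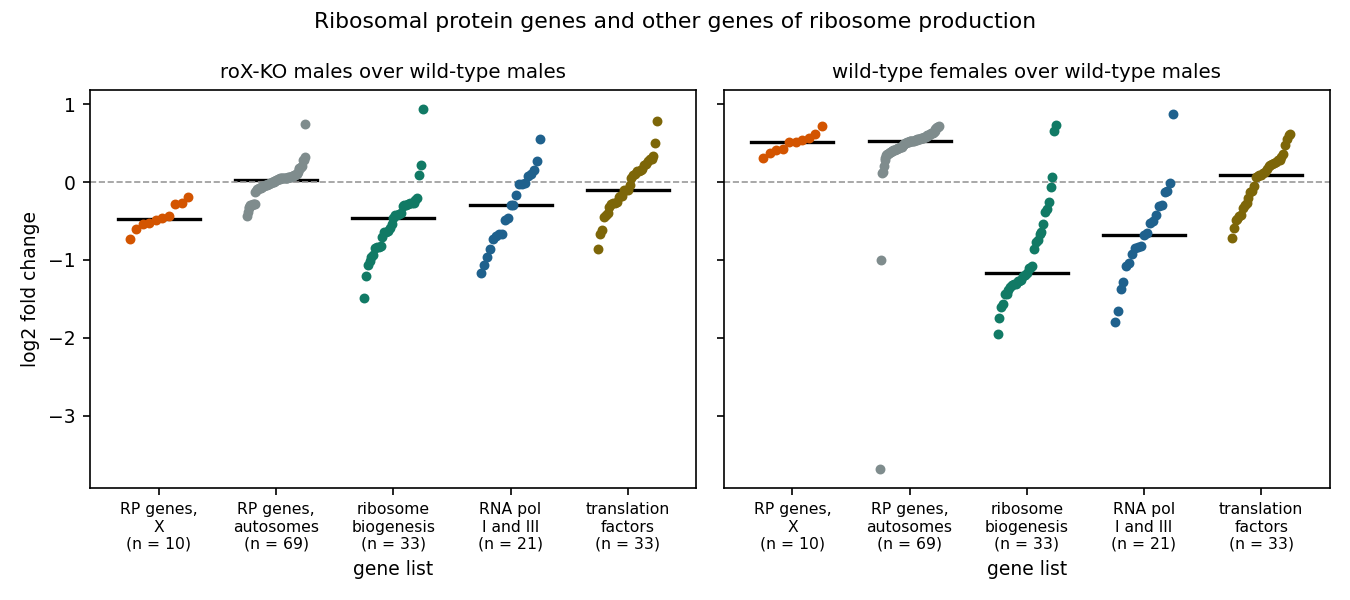
Log2 folds of ribosomal protein genes and of the other ribosome-related gene lists in roX-KO males against wild-type males and in wild-type females against wild-type males (points are genes, lines are medians; the 2 comparisons share the wild-type males). Ribosome biogenesis genes have medians of -0.46 and -1.16, while autosomal ribosomal protein genes have medians of 0.02 and 0.52. The medians for females include the library that stands apart from the other females, and the 0.52 rests on it. Medians of females against wild-type males without that library are not given in this caption.

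Between the male groups 7 of 16 growth signalling genes were higher in roX-KO males (43.8%) and 1 lower (6.25%), where 31.4% and 32.1% of all tested genes were; the median was 0.20. InR (1.46), the insulin receptor, and Mnt (0.59), the antagonist of Myc, rose most, and Thor (-0.70), the inhibitor of cap-dependent translation, fell. Rheb (0.76), the activator of TOR, was the 1 gene that rose in females against wild-type males, and in roX-KO males against females InR (1.65) and REPTOR (0.73) rose. Of 8 genes known to respond to ribosomal protein loss or to the stress that goes with it, 5 rose (62.5%) and 1 fell (12.5%) in roX-KO males against wild-type males, beside 31.4% and 32.1% of all tested genes. The rises were led by the cell death genes hid (1.27) and rpr (0.55), and PEK (-0.28), a kinase of eIF2alpha, fell. Xrp1, the transcription factor that mediates the slow growth of Minute cells in Drosophila, rose by 0.31 ± 0.09 (adjusted p = 0.00696). Females against wild-type males had 2 of the 8 higher (Irbp18 0.94, the partner of Xrp1, and rpr 0.86) and 2 lower (PEK -1.04 and puc -0.77), and in roX-KO males against females hid (1.09) rose and Irbp18 (-0.57) fell. Of all tested genes 10.8% were higher and 11.2% lower in females against wild-type males, and 10.7% and 16.6% in roX-KO males against females. A link between the changes in these 2 lists and the levels of the ribosomal protein genes was not tested.

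Of 5 factors known to bind ribosomal protein promoters, BEAF-32 (0.22) rose in roX-KO males against wild-type males and the others were not called. Of 4 ribosome-associated proteins, sta (-0.42), on the X, and Nacalpha (-0.25) fell. No gene of either list was called in the other comparisons, where 1 of the promoter factors was higher and 1 lower at an unadjusted p under 0.05 in each, and among the 4 ribosome-associated proteins 0 were higher in both and 1 was lower against females. Of all tested genes 31.4% were higher and 32.1% lower between the male groups, and 10.7% and 16.6% in roX-KO males against females. Germline markers were mixed between the male groups, with 3 higher and 4 lower of 8, and 6 of 8 were higher in roX-KO males than in females. All 8 muscle markers fell in roX-KO males against wild-type males, and 7 of 8 neuron markers rose, with elav, on the X, lower. Of 18 mitochondrial genes 15 fell in the same comparison. The part of these shifts in the values of the ribosomal protein genes was not tested.

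The ribosomal protein genes share a gene structure that the rule did not use. In the annotation 25 of the 79 tested genes (31.6%) hold small nucleolar RNA genes inside them, against 0.816% of all 11152 tested genes with a position, 91 genes in all. Their median span was 1318 bases and their median exon length 877 bases, against 2573 and 1950 bases over all tested genes, with 3 and 4 exons. Among the 25 host genes 2 rose and 4 fell in roX-KO males against wild-type males, and among the other 54 genes 1 rose and 12 fell, all below the 31.4% and 32.1% of all tested genes. On the X, 3 of the 10 genes are hosts. None of the X-linked genes lies for more than 10% of its exon length opposite another gene, whereas 7 autosomal ones do, RpS9 the most at 50.3%, so the values of those 7 are less certain. On the X, overlap of the same strand covers 16.9% of the exon length of RpS6. RpS10b, RpS14a, RpS14b, RpS15Aa and RpS28b on the X are lettered copies, so X-linked values are not free of such doubt.

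In the authors' deposited table for the male libraries 3 ribosomal protein genes were higher and 18 lower in roX-KO males, 9 of the lower ones on the X. It holds all 19 calls made here, in the same direction, and 2 more: in the authors' deposited table RpL38 had a log2 fold of -0.30 (adjusted p = 0.0295) and RpS14a of -0.28 (adjusted p = 0.0292).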

How the data were processed

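The authors deposited raw read counts per gene for each library, and for the 6 male libraries a table with FPKM, log2 fold changes and p-values, per the file headers. The submitters' processing notes list dm6, HTSeq 2.0.2, HISAT2 2.2.1, DESeq2 and SAMtools 1.13. Strand setting: not given in the sources used here. Reads not assigned to a gene were 50.0 to 51.9% of all lines of a file and were left out. Positions, exon lengths and symbols came from the Ensembl release 115 annotation in dm6 coordinates, which matched 17556 of 17611 IDs.

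Each comparison was fitted on its 6 libraries. Genes were kept by filterByExpr (minimum count 10, minimum total 15), normalised with TMM and fitted in edgeR 4.0.16 (R 4.3.3, limma 3.58.1) with its robust quasi-likelihood test and Benjamini-Hochberg adjustment over all genes tested, called at 0.05. The standard error of a log2 fold is its size over the square root of F. CPM used TMM factors over 9 libraries, and log2 CPM a prior count of 2. Pericentromeric means beyond 22.2 Mb of 2L and 23 Mb of 3L, and before 5.7 Mb of 2R and 4.2 Mb of 3R. DESeq2 1.42.0 was an alternative. Tested on simulated data for roX-KO against wild-type males (11140 genes), the fit found 83% of genes changed by 0.5 and 100% changed by 1 on the log2 scale. With females against wild-type males (11076 genes) it found 6% and 75%, and with roX-KO males against females (11139 genes) 5% and 78%. Each simulation changed 200 genes, gave every gene the same dispersion and did not model a library that stands apart. The rates for real genes may therefore differ. Tables and figures were made with matplotlib 3.10.9, NumPy 2.4.6 and pandas 2.3.3 in Python 3.11.15.

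The genes described and the 10 other gene lists were chosen with earlier results of these data known. Of the 148 list symbols, 3 had no match. Genes were named by a rule: RpL15, every called gene between the male groups up to 12 in each direction, the 6 largest called in each direction otherwise, all X-linked and pericentromeric genes, the 3 highest and lowest per length, and the 2 largest called changes in each direction of other lists. Xrp1, elav, vas and zpg and the genes with overlap are named outside it, with their values seen.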

Additional observations from a re-analysis of the deposited data

How the results depend on the processing

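Of 312 alternative values, 259 stayed on the same side of the threshold, within 1.5 times the count or within the replicate spread, 48 moved further, 4 became called and 1 reversed. In all 3 values had the other sign: RpL15 below, the X-linked minus autosomal difference in females against wild-type males without female 2 (0.0020), and the difference in the share of counts between roX-KO males and females, which was -2.58 points and 0.0462 without female 3. Between roX-KO and wild-type males, the genes called higher numbered 39 with plain library totals, 1 in a fit of all 9 libraries and 5 with the replicate block, against 3, and 1 to 21 leaving out 1 library each. Those called lower numbered 5 with plain totals and 0 in the fit of all 9 libraries, against 16, and 14 to 18 leaving out 1 library; the same fit without female 3, added after seeing the data, called 18. In females against wild-type males 1 was called lower with the replicate block and 1 without lettered pairs, against 2, and 1 to 2 leaving out 1 library. In roX-KO males against females, genes called higher numbered 3 with plain totals, 2 with all 9 libraries, 2 with the block, 2 by DESeq2, 3 with factors from the autosomal ribosomal protein genes, 3 with 8 libraries in 1 fit and 0 without lettered pairs, against 1, and 1 to 4 leaving out 1 library. Those called lower numbered 9 with factors from arm genes, 10 with all 9 libraries, 13 by DESeq2 and 14 with 8 libraries, against 3, and 0 to 21 leaving out 1 library. From the fitted log2 folds, the X-linked minus the autosomal ribosomal protein genes came to -0.50 between the male groups, -0.01 in females against wild-type males and -0.43 in roX-KO males against females. Without lettered pairs the first was -0.55 and the last -0.53. In females against wild-type males it was -0.047 with 8 libraries in 1 fit and -0.046 to 0.0020 leaving out 1 library, the lowest without female 3. In roX-KO males against females it was -0.48 to -0.40 leaving out 1 library. RpL15 reversed to -0.042 in females against wild-type males with factors from the autosomal ribosomal protein genes (adjusted p = 0.909), and in roX-KO males against females it was called at 0.58 with plain totals, 0.75 with those factors and 0.52 with 8 libraries, and lay at 0.21 to 0.52 leaving out 1 library. The cause of these changes was not tested. Replicate numbers do not pair samples: correlations of same-numbered deviations were -0.014 to -0.007 between the male groups, -0.585 to 0.396 in females against wild-type males and 0.008 to 0.061 in roX-KO males against females. Deviations of female 3 and wild-type male 2 correlated at 0.667 over all genes and 0.523 over the ribosomal protein genes. Those of female 1 and wild-type male 2 correlated at -0.627 over all genes. The cause of these correlations was not tested. Tested on simulated data, the comparisons with females recovered few genes changed by 0.5 on the log2 scale, so genes not called there may still differ by that much.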
